A study of Mus musculus with 6 samples.

Results

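The 10 genes described here encode transcription factors known for driving regulatory T cells (Treg) into their activated, tissue-homing effector state: Batf, Irf4, Prdm1, Bhlhe40, Nfil3, Maf, Gata3, Rora, Id2 and Myb. They were taken by gene symbol, each matched exactly 1 of the 23282 entries in each count file, and that rule uses no measured value, although the genes were picked with earlier results of these data known. The libraries came from flow-sorted, unstimulated splenic Treg of C57BL/6 mice, 3 from wild type mice and 3 from mice with a conditional knockout of inositol polyphosphate multikinase (IPMK cKO). IPMK is a kinase that makes higher inositol phosphates and phosphoinositides, and the study asked how it bears on effector Treg and calcium entry. The labels read here state neither the Cre driver nor the deleted exons, the age of the mice or how many mice a library stands for. The p-values therefore measure the spread between these libraries, part of which may be technical.

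Treg restrain other immune cells, and after activation they become effector Treg that hold suppressive and tissue-repair programmes. BATF binds DNA as a dimer with JUN proteins, and IRF4, which T cell receptor signalling induces, joins it on composite sites to open effector genes. PRDM1 (Blimp-1) acts downstream of both as a repressor of resting-state genes, while BACH2, BCL6, TCF7, LEF1 and SATB1 hold T cells in resting, memory or follicular states. MAF, GATA3 and RORA shape tissue Treg, and ID2 blocks E-protein factors.

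Total counts were 7464546 to 8246993 in wild type against 8363324 to 8980395 in IPMK cKO libraries, of which 16.7% to 32.1% fell on the ribosomal RNA precursor Rn45s. The targeted gene, Ipmk, gave 129, 77 and 99 tags across wild type against 3, 21 and 0 across IPMK cKO; whether its 3′ end lies in the deleted part is not stated in the labels. IPMK cKO replicate 1 stood apart from the other libraries on the first principal component and wild type replicate 1 on the second. Summed over 8 Treg markers (Cd3e, Cd3d, Cd3g, Cd4, Foxp3, Il2ra, Ikzf2 and Ctla4), the level was 2728 to 3585 CPM (counts brought to a common, TMM-scaled library size) in wild type against 2488 to 2946 CPM in IPMK cKO. Ikzf2 and Cd3d were the most abundant of them. All 8 markers were detected in every library, but Foxp3, the factor that defines Treg, was at 10.3, 80.6 and 29.0 CPM in wild type against 85.1, 72.0 and 82.3 CPM in IPMK cKO. In bulk libraries, fewer cells of a type and less RNA per cell cannot be told apart.

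Of the 10 factors, Maf, Prdm1, Batf and Nfil3 were lower in all 3 IPMK cKO libraries than in any wild type library, and no factor was higher in all 3. Such a complete separation downward occurred in 5.66% of the 10475 genes tested, upward in 4.74% and either way in 10.4%. Nfil3 passed the filter on low counts largely through its wild type libraries, so the filter favoured its separation. The IPMK cKO means of Maf, Prdm1 and Batf were 48.7%, 45.4% and 40.1% under those of wild type, and that of Nfil3 was 81.2% under. By edgeR, 0 of the 10 passed the adjusted threshold of 0.05, and 0 of all genes did in either direction (0% called; edgeR adjusted p = 0.9999 for each factor). DESeq2 called 4 genes elsewhere (0.0283% of its tests), no factor among them, and limma-voom none (0%). Before adjustment, Maf alone was under 0.05 in edgeR, as were 2.56% of all genes (1.19% lower and 1.37% higher in IPMK cKO), and it ranked at 29 of all genes. Its DESeq2 adjusted p of 0.401 was its smallest in any of 15 alternative settings. Estimates were below 0 for 7 factors and above 0 for 3, with a median log2 fold change (IPMK cKO over wild type) of −0.55 against +0.03 over all genes, of which 48.2% were below 0 and 51.8% above. The number of libraries leaves wide intervals, so the size of a difference is known only roughly for most factors.

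**Figure D1:**
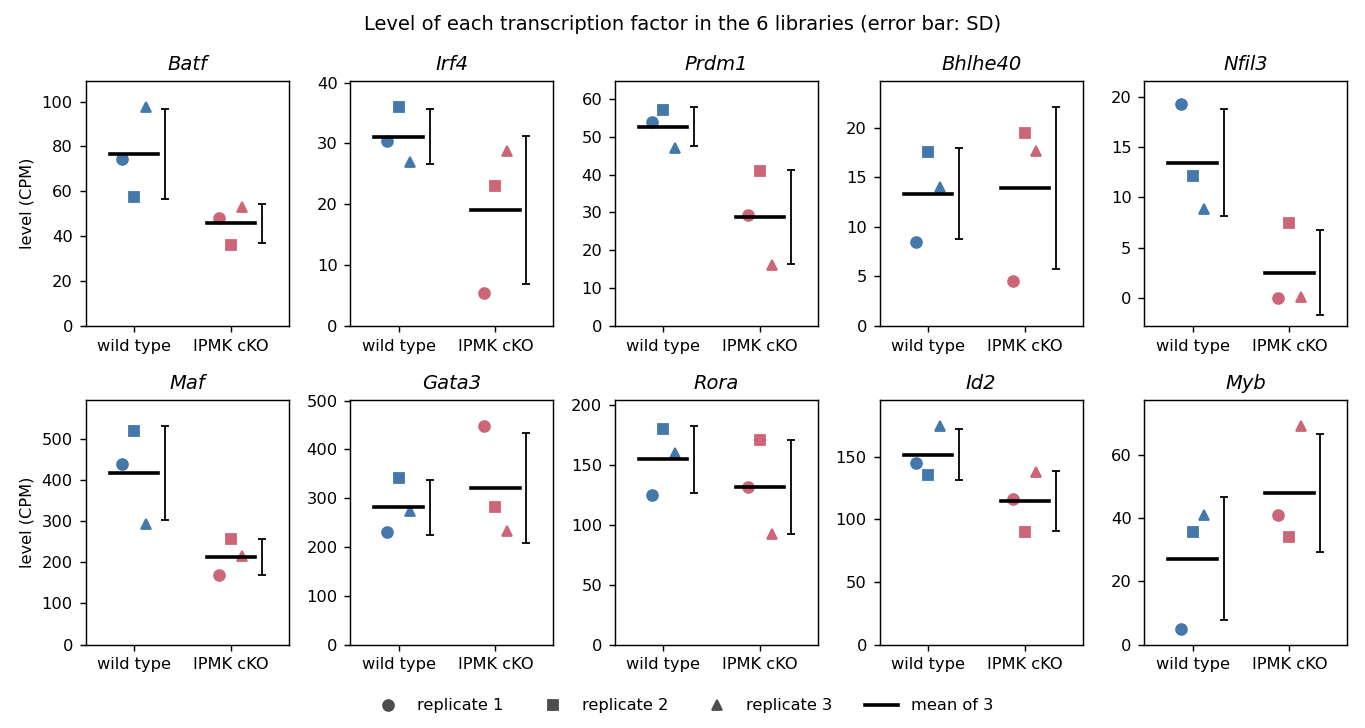
Level of each of the 10 transcription factors in CPM (vertical axis) in the 3 wild type and 3 IPMK cKO libraries (symbols by replicate number); the thick line is the mean of 3 and the error bar the SD. All 3 IPMK cKO points lie below all wild type points for Batf, Prdm1, Nfil3 and Maf, and the groups overlap for the other 6.

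BATF and IRF4 are the pioneer pair of the effector programme. Batf (ENSMUSG00000034266, chromosome 12, 85686669 to 85709087, plus strand of mm10) was at 74.4, 57.5 and 97.5 CPM in wild type replicates 1 to 3 and at 48.3, 36.1 and 53.0 CPM in IPMK cKO. The highest IPMK cKO library thus lay just under the lowest wild type one. The means were 76.4 ± 20.04 and 45.8 ± 8.73 CPM (SD, n = 3 each), with a log2 fold change of −0.74 (SE 0.38, 95% interval −1.57 to 0.09). Irf4 (ENSMUSG00000021356, chromosome 13, 30749226 to 30766976, plus strand) was at 30.4, 35.9 and 26.9 CPM in wild type against 5.49, 23.0 and 28.8 CPM in IPMK cKO. Here the groups overlapped, since replicate 3 of IPMK cKO was above the lowest wild type library and only replicate 1 was far down. The estimate was −0.70 (SE 0.67, interval −2.17 to 0.77), and −0.27 without IPMK cKO replicate 1, which is the library that stood apart. It was −1.12 without IPMK cKO replicate 3. In wild type, Irf4 varied little (SD 4.54 CPM around a mean of 31.1), while its SD in IPMK cKO was 12.1 CPM around 19.1.

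For 8 of the 10 factors RefSeq's promoter table (GRCm38.p6) held a window from 250 bases before to 50 bases after the gene start; Maf and Bhlhe40 had none. The windows were searched on both strands for the NFAT core GGAAA, the AP-1 site TGANTCA (bound by BATF and JUN dimers), the FOXO site GTAAACA and the composite of IRF and AP-1 (TTTC before, or GAAA after, an AP-1 site at a spacing of 4 bases). A composite match contains an AP-1 match, and overlaps were kept. Among all 32851 windows, 61.3% held GGAAA, 7.81% TGANTCA, 3.65% GTAAACA and 0.119% the composite. Prdm1, Batf and Irf4, the module of BATF, IRF4 and their downstream repressor, are shown, a choice made with the values known. Their 3 estimates were below 0, but so were those of Rora, Id2 and Nfil3, whose windows are not shown. A link between matches and levels was not tested. The runs read 5′ to 3′ on the gene's strand, stop where GENCODE M21 annotates an exon, and carry the matches in capitals.
Prdm1 (chr10:44458749-44458998, minus strand): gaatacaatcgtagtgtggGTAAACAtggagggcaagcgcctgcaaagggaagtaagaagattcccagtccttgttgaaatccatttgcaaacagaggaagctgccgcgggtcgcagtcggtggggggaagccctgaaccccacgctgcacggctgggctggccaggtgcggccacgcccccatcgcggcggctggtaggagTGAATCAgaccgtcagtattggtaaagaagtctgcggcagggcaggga
Batf (chr12:85686470-85686668, plus strand): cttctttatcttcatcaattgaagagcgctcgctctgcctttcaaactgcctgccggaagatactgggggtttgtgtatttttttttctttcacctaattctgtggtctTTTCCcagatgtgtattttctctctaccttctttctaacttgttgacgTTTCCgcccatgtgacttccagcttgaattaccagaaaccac
Irf4 (chr13:30748983-30749225, plus strand): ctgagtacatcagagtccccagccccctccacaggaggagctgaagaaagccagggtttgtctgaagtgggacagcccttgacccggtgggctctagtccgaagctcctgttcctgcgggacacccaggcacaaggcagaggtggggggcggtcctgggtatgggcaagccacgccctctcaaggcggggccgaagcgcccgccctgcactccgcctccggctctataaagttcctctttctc
The Prdm1 window held a FOXO match starting at position −231 and an AP-1 match at −48 from the gene start, and no GGAAA. Batf held GGAAA on the opposite strand at −141 and −93. The window of Irf4 had its sole match, GGAAA on the opposite strand, at position 1, past the run shown. None of the 8 windows held the composite, and Prdm1 alone held TGANTCA. Of the windows not shown, those of Gata3, Rora and Myb held GGAAA and that of Myb also a FOXO match. Those of Id2 and Nfil3 held no match. The estimates of Gata3 and Myb were above 0. The Prdm1 window lies inside the span that GENCODE gives the gene, before the RefSeq start. These are matches of letters only.

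The repressors differed in their patterns. Prdm1 (ENSMUSG00000038151, chromosome 10, 44437177 to 44528501, minus strand), the Blimp-1 gene, was at 54.0, 57.0 and 47.0 CPM in wild type against 29.3, 40.9 and 16.1 CPM in IPMK cKO. The wild type libraries were close together (52.7 ± 5.12 CPM), and those of IPMK cKO were more scattered (28.8 ± 12.4 CPM; SD, n = 3 each). The estimate was −0.87 (SE 0.47, interval −1.91 to 0.16). Without IPMK cKO replicate 2 it was −1.25, and without replicate 3 it was −0.59.

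Nfil3 (ENSMUSG00000056749, chromosome 13, 52967209 to 52981073, minus strand), a basic leucine zipper repressor also known from the circadian clock, had 160, 89 and 85 counts in wild type against 0, 57 and 1 in IPMK cKO. In CPM these were 19.3, 12.2 and 8.84 against 0, 7.45 and 0.101. For the library with no tag, 3 counts would be 0.422 CPM, an upper limit for counting error alone. So 2 of the 3 IPMK cKO libraries held almost no Nfil3 tag and the remaining one lay near the lowest wild type library. The ratio of means was 5.33 and the log2 estimate −2.41 (SE 1.76, interval −6.29 to 1.47); it was −7.60 without IPMK cKO replicate 2, which left 0 and 1 counts in that group. It was −5.35 with the replicate number as a block, −4.89 in limma-voom and −1.48 without both libraries numbered 1. Nfil3 passed the filter on low counts with 10 or more counts in 4 libraries, whereas the other 9 factors had them in all 6. In IPMK cKO only replicate 2 reached 10 counts, so Nfil3 passed largely through wild type, where it was higher. Bhlhe40 (ENSMUSG00000030103, chromosome 6, 108660629 to 108666925, plus strand), a repressor that T cell activation induces, was at 8.42, 17.5 and 14.0 CPM in wild type against 4.50, 19.5 and 17.7 CPM in IPMK cKO. The lowest library of each group was replicate 1, and the groups overlapped. Its estimate was +0.06 (SE 0.86, interval −1.83 to 1.95), with a sign that turned in 5 of 15 alternative settings.

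**Figure D2:**
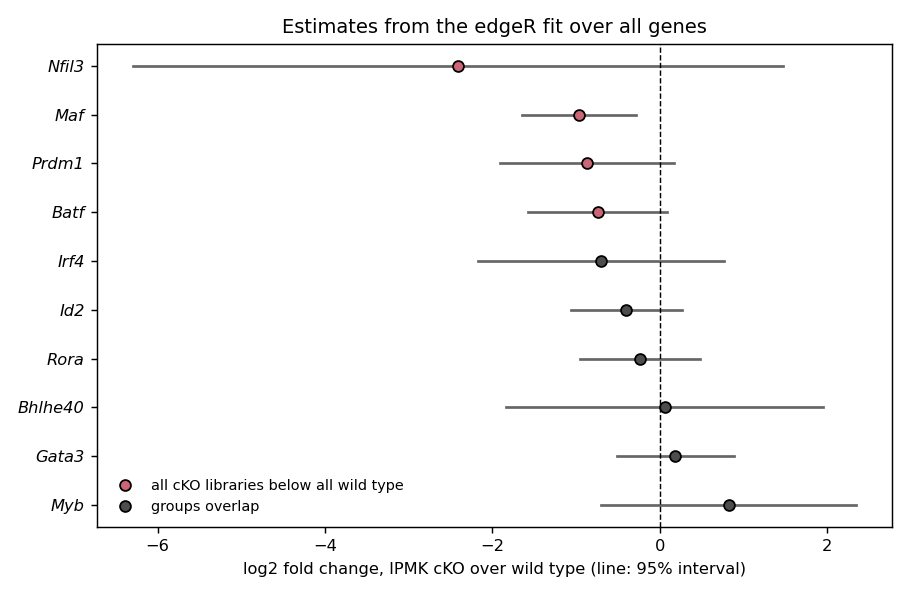
Log2 fold change of IPMK cKO over wild type (horizontal axis) for each factor, from the edgeR fit over all genes, with its 95% interval as a line; red points mark the 4 factors whose groups do not overlap. The interval of Maf (−1.64 to −0.29) lies below 0 before any adjustment for multiple testing, and those of the other 9 span 0.

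Among the factors of T helper lineages and tissue Treg, Maf and Gata3 differed in direction of estimate. Maf (ENSMUSG00000055435, chromosome 8, 115682942 to 115707794, minus strand), which drives interleukin-10 in several T cell types and supports gut Treg, was at 440, 519 and 293 CPM in wild type against 170, 258 and 214 CPM in IPMK cKO. Every IPMK cKO library was below every wild type one. The means were 417 ± 115 and 214 ± 43.7 CPM (SD, n = 3 each), and the estimate −0.96 (SE 0.31, interval −1.64 to −0.29). It stayed between −1.17 and −0.79 when any 1 library was left out, and was −0.78 without both libraries numbered 1. Gata3 (ENSMUSG00000015619, chromosome 2, 9857078 to 9890034, minus strand), the Th2 factor that also maintains Treg at tissue sites, was at 230, 342 and 273 CPM in wild type against 449, 281 and 232 CPM in IPMK cKO. Replicate 1 of IPMK cKO was the highest of the 6 libraries, and the others overlapped. The estimate was +0.19 (SE 0.32, interval −0.51 to 0.89) and turned to −0.14 without that library. Rora (ENSMUSG00000032238, chromosome 9, 68653786 to 69388246, plus strand), a nuclear receptor of skin and other tissue Treg, was at 124, 179 and 160 CPM in wild type against 131, 171 and 92.1 CPM in IPMK cKO. Only replicate 3 of IPMK cKO lay outside the wild type range. Its estimate was −0.23 (SE 0.32, interval −0.95 to 0.48). It was −0.03 without IPMK cKO replicate 3, −0.12 without wild type replicate 2, −0.37 without wild type replicate 1 or both libraries numbered 1, and −0.50 without IPMK cKO replicate 2.

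Id2 (ENSMUSG00000020644, chromosome 12, 25093799 to 25097140, minus strand), the inhibitor of E proteins, was at 145, 136 and 175 CPM in wild type against 117, 90.1 and 138 CPM in IPMK cKO. The highest IPMK cKO library only just passed the lowest wild type one. The estimate was −0.40 (SE 0.30, interval −1.06 to 0.26). Under upper-quartile scaling its groups separated too, which made 5 factors lower without overlap, against 6.21% of all genes. Myb (ENSMUSG00000019982, chromosome 10, 21124935 to 21160984, minus strand), a factor of lymphoid progenitors that effector Treg also use, was at 4.81, 35.8 and 41.0 CPM in wild type against 40.9, 34.1 and 69.3 CPM in IPMK cKO. Wild type replicate 1, with 40 counts, was far below all others. The estimate was +0.82 (SE 0.69, interval −0.70 to 2.35) and +0.32 without that library, +0.46 without IPMK cKO replicate 3 and +1.24 without wild type replicate 3. No other annotated gene lay within 1000 bases of the 3′ end of any of the 10 genes in GENCODE M21, on either strand.

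**Figure D3:**
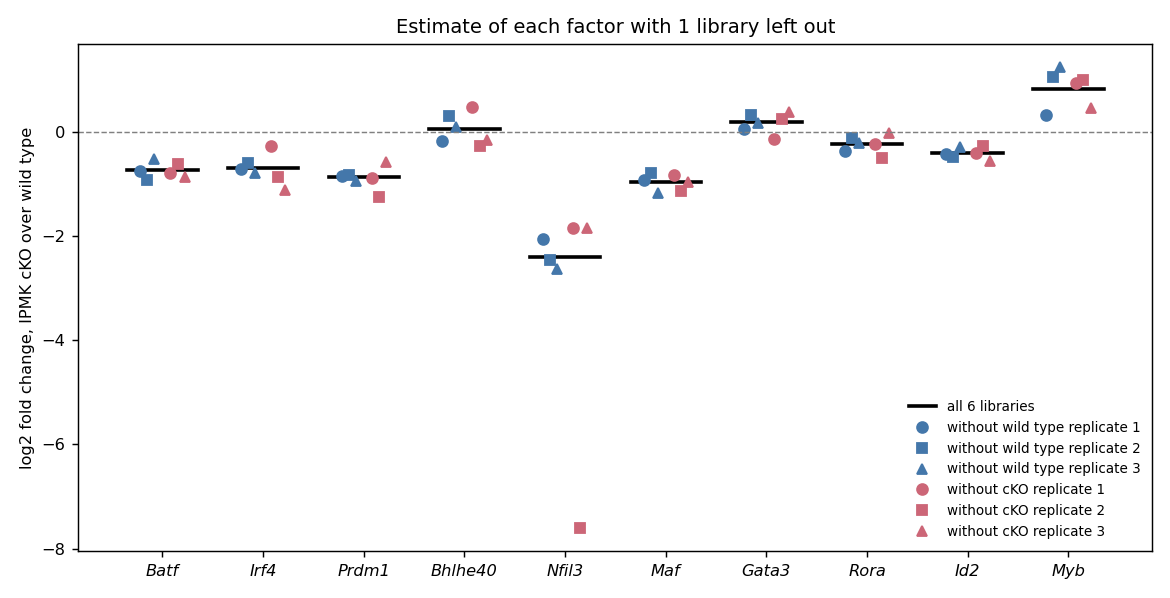
Log2 fold change of each factor (vertical axis) with all 6 libraries (thick line) and with each library left out in turn (blue, a wild type library left out; red, an IPMK cKO library left out). Batf, Irf4, Prdm1, Nfil3, Maf, Rora and Id2 stay below 0 throughout, Myb stays above 0, and Bhlhe40 and Gata3 change sign.

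The 4 factors below all wild type libraries (Prdm1, Batf, Maf and Nfil3) were also separated when each single library, or both libraries numbered 1, was left out. This had to hold, since leaving out a library cannot make separated groups overlap, apart from small shifts in scaling. The share of all genes separated downward was then 8.90% to 17.4%, since fewer libraries overlap less often. Id2 joined them without wild type replicate 2, Irf4 without wild type replicate 3, and both without IPMK cKO replicate 3. Without IPMK cKO replicate 1, Bhlhe40 was above all wild type libraries. Relative to the wild type mean on a log2 CPM scale, 8, 6 and 8 factors were below 0 in IPMK cKO replicates 1, 2 and 3. The medians over the factors were −0.73, −0.39 and −0.38 in these libraries. In wild type replicates 1, 2 and 3, 7, 3 and 5 factors were below 0, with medians of −0.04, 0.22 and 0.02. Wild type replicate 1 thus had more factors below 0 than IPMK cKO replicate 2. Replicate 1 of IPMK cKO held the lowest of the 6 values for 4 factors (Irf4, Maf, Nfil3 and Bhlhe40) and the highest for Gata3. The summed level of the 10 factors was 1131, 1392 and 1135 CPM in wild type against 995, 961 and 861 CPM in IPMK cKO, with no overlap. Without Maf the sums were 691, 873 and 842 CPM against 825, 703 and 647 CPM, which overlapped. Without both Maf and Gata3, whose highest value was in IPMK cKO replicate 1, they were 460, 531 and 569 CPM against 376, 422 and 415 CPM, again with no overlap. Neither of these smaller sums was planned. Leaving out Gata3, whose estimate was above 0, favours a separation downward.

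Ratios within a library do not depend on how libraries are scaled. A total of 9 pairs were computed after the values had been seen, with no test, and 3 of them set a factor against a known opponent or relative. BACH2 competes with BATF-containing dimers for AP-1 sites, and the ratio of Batf to Bach2 tags was 0.367, 0.467 and 0.616 in wild type against 0.226, 0.169 and 0.245 in IPMK cKO. The lowest wild type ratio was above the highest IPMK cKO ratio. This follows from the levels already, since Batf was lower and Bach2 higher in all 3 IPMK cKO libraries. PRDM1 and BCL6 repress each other, and the ratio of Prdm1 to Bcl6 tags was 1.66, 2.28 and 2.37 in wild type against 0.803, 3.37 and 0.591 in IPMK cKO. Replicates 1 and 3 were below the wild type range and replicate 2 above it. For Id2 and its relative Id3, which marks resting T cells, the ratio was 1.42, 1.32 and 1.94 against 5.34, 1.53 and 1.29, with replicate 1 far above and replicate 3 just below the wild type range. Of the other pairs, Maf to Bach2, Maf to Gata3 and Prdm1 to Satb1 were lower in all 3 IPMK cKO libraries. For Maf to Bach2 and Prdm1 to Satb1 this again follows from the levels of the single genes. Irf4 to Irf8 and Batf to Gata3 overlapped.

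**Figure D4:**
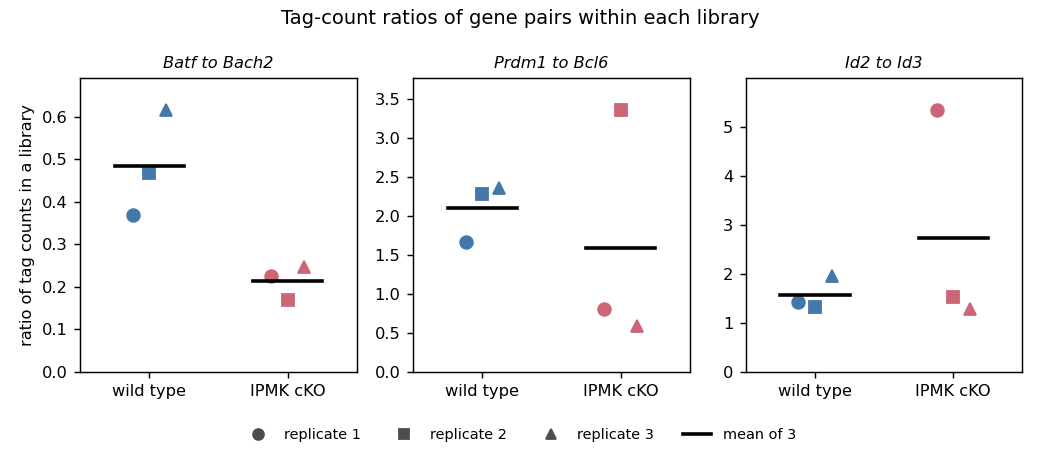
Ratio of tag counts within each library (vertical axis) for Batf to Bach2, Prdm1 to Bcl6 and Id2 to Id3, in wild type and IPMK cKO (symbols by replicate number, thick line the mean of 3). The groups separate for Batf to Bach2, between 0.169 and 0.245 in IPMK cKO against 0.367 or more in wild type, and overlap for the other pairs. The separation follows from Batf being lower and Bach2 higher in every IPMK cKO library.

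Of 19 partner factors of these proteins (JUN, NFAT, REL, RUNX, IKZF and E-protein genes with Cbfb, Ets1, Irf8, Batf3 and Spi1), 17 could be tested and none was called in either direction. Their median estimate was +0.13, with 14 above and 3 below 0. Junb, the dimer partner of BATF, was at 310, 222 and 196 CPM in wild type against 85.6, 190 and 106 CPM in IPMK cKO (−0.93, SE 0.36). Cbfb, the shared subunit of RUNX complexes, was at 128, 84.2 and 99.2 CPM against 34.1, 69.9 and 37.5 CPM (−1.14, SE 0.39). Of the 17, these 2 were below the wild type range in all 3 IPMK cKO libraries and 2, Ikzf3 and Ets1, above it, beside 5.66% and 4.74% of all genes. Ets1 was at 815, 889 and 798 CPM in wild type against 991, 924 and 929 CPM in IPMK cKO (+0.19, SE 0.24). Ikzf3 and Ikzf1, zinc finger factors of lymphocytes, had estimates of +0.75 (SE 0.33) and +0.58 (SE 0.29).

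Of the 12 antagonists and resting Treg factors, 11 were tested and none was called, with 9 estimates above 0 and 2 below (median +0.41). Satb1, Lef1, Foxp1 and Bach2 lay above all wild type libraries in all 3 IPMK cKO libraries, 4 of the 11, beside the 4.74% of all genes. The list was chosen with earlier results of these data known, so this share is a description and no independent support. Bach2 was at 202, 123 and 158 CPM in wild type against 214, 214 and 216 CPM in IPMK cKO (+0.41, SE 0.29). The estimates of the chromatin organizer Satb1, of Lef1 and of Foxp1 were +1.02 (SE 0.27), +0.67 (SE 0.28) and +0.54 (SE 0.25).

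Of 22 near paralogs, 21 were in the files, 12 were tested and none was called. Their median was +0.07, with 7 above and 5 below 0, and no group separated. It was +0.53 without IPMK cKO replicate 2 and −0.49 without replicate 3. The paralogs with the smallest p were the clock-output factors Tef (+0.99, SE 0.48) and Dbp (+1.002, SE 0.60), then Maff (0, 0 and 1.35 CPM against 3.38, 0 and 13.8 CPM) and Id3 (−0.65, SE 0.49).

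Of 28 genes taken as effector Treg output genes, such as receptors and effector molecules, 23 were tested. None was called, 18 estimates were below 0 and 5 above, and the median was −0.69, also with Gzmb at its bound. In 8 of the 23 the IPMK cKO libraries were all below wild type and in 0 above, beside the 5.66% and 4.74% of all genes. The 8 include Gzmb, which passed the filter on low counts only through wild type and so had to separate. Klrg1, a receptor of terminal effector Treg, was at 75.3, 50.7 and 123 CPM in wild type against 26.2, 34.0 and 37.3 CPM in IPMK cKO (−1.35, SE 0.43). Icos, a costimulatory receptor, was at 294, 460 and 351 CPM against 210, 291 and 196 CPM (−0.67, SE 0.29), and the integrin subunit Itgb1 had −0.78 (SE 0.33). Gzmb, for granzyme B, gave 25, 16 and 29 tags across wild type against none across IPMK cKO. The median moved to −1.03 without IPMK cKO replicate 2 and −0.52 without replicate 3.

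**Figure D5:**
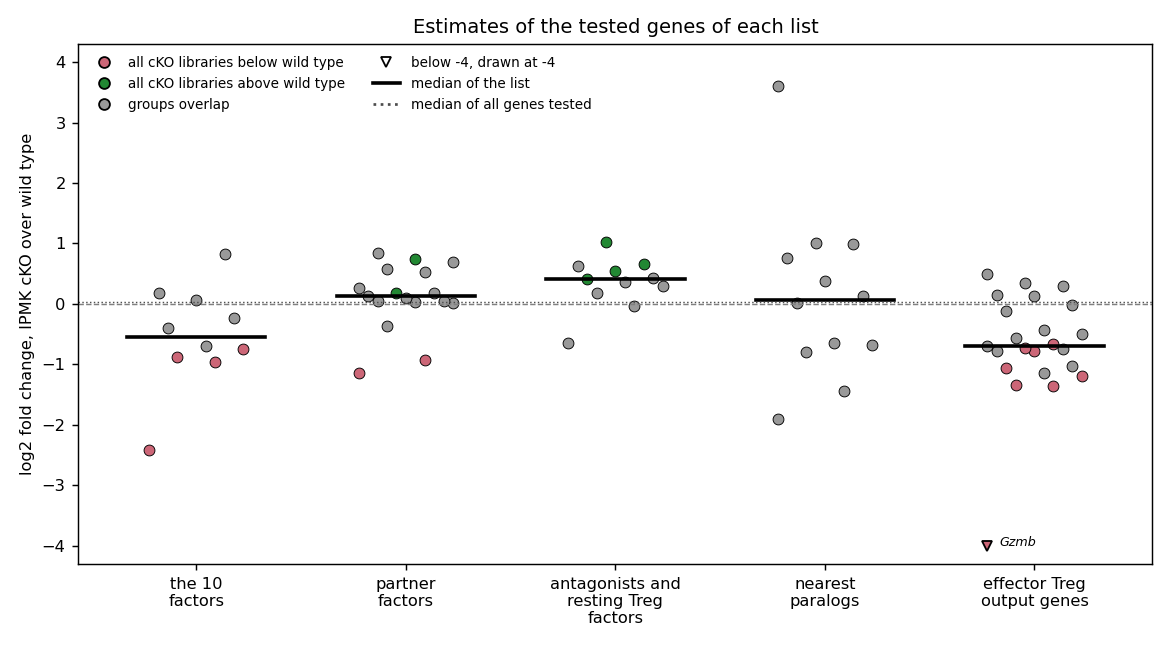
Log2 fold change of the tested genes (points) of the 10 factors and of the 4 related lists (vertical axis), with the median of each list as a thick line; red points have all IPMK cKO libraries below wild type, green points all above, and Gzmb is drawn as a triangle at the lower end of the axis. The factors and the effector output genes have medians of −0.55 and −0.69, the antagonists and resting Treg factors +0.41. The factors and lists were chosen with earlier results of these data known.

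The genes whose pattern over the 6 libraries was most like the mean log2 level of the 10 factors, among 5934 others at 20 CPM or more, were Itgb3, Ythdf3, Ube2n and Ostf1 (Pearson r 0.998, 0.986, 0.985 and 0.985 over 6 libraries that share depth and handling). Over so few libraries, 17 of the 5934 genes had r over 0.95. In IPMK cKO replicates 1 and 3 the factors' mean log2 level was −1.12 and −0.73 relative to wild type, against medians of −0.73 and −0.38. Nfil3, with 0 and 1 counts there, was at −5.75 and −5.25 and so weighed heavily in that mean. Itgb3, an integrin subunit, was at 27.8, 48.0 and 39.9 CPM in wild type against 11.5, 28.9 and 18.3 CPM in IPMK cKO.

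Several of the 10 factors are also used by other cells: Prdm1 and Irf4 by plasma cells, Gata3, Rora, Id2 and Nfil3 by innate lymphoid cells. Of 6 plasma cell markers, 5 had a count in some library, and their sum was 32.8 to 54.2 CPM in wild type against 19.1 to 36.6 CPM in IPMK cKO. Nearly all of it was Xbp1, which other cells express; Tnfrsf17 was at 0 throughout, and Jchain was at 5.20 CPM in wild type replicate 3 and 0 in all others. Of 8 markers of NK cells and innate lymphoid cells, 5 had a count, with sums of 81.6 to 125 and 60.3 to 131 CPM. They were led by Il1rl1 and Il18rap, and Ncr1, Klrd1 and Klre1 were at 0 throughout. The NK cell marker Klrb1c was at 7.94 CPM in wild type replicate 1 and at most at 0.101 CPM elsewhere. Eomes in this list was at 0, 1.91 and 3.85 CPM in wild type against 22.5, 11.8 and 15.0 CPM in IPMK cKO. All its IPMK cKO libraries were above wild type. Il1rl1, which is also an effector Treg gene, went the other way with no overlap, at 44.8, 60.1 and 43.2 CPM in wild type against 7.60, 37.4 and 13.4 CPM in IPMK cKO. B cell markers (4 of 6 with a count, led by Cd79b and Cd79a) summed to 6.83 to 14.2 and 7.10 to 13.1 CPM with Pax5 at 0. Those of CD8 T cells (1 of 2, Cd8b1) summed to 7.82 to 12.2 and 2.11 to 8.62 CPM with Cd8a at 0. Myeloid markers (8 of 8, led by Cst3 and Cd68) came to 56.7 to 70.9 and 14.4 to 85.5 CPM, and dendritic cell markers (4 of 6, led by Irf8 and Xcr1) to 47.8 to 68.8 and 41.9 to 67.6 CPM with Flt3 and Itgax at 0. Basophil and mast cell markers (3 of 5, led by Ms4a2 and Gata2) came to 1.35 to 5.603 and 0.141 to 7.19 CPM with Mcpt8 and Fcer1a at 0, and erythroid markers (6 of 6, led by Gata1 and Hba-a1) to 5.90 to 62.5 and 1.97 to 34.4 CPM. The sums of each of these lists overlapped between the groups, and the part of other cells in the results was not tested.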

How the data were processed

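RNA was extracted with Trizol from sorted Treg and made into 3′ tag libraries with the Lexogen QuantSeq kit, per the labels' protocols. The authors deposited whole-number counts per gene symbol, not normalized. Per the submitters' processing notes, Bowtie2 and edgeR are among the tools and mm10 and hg19 among the builds, without a role for any; annotation, counting program and strand setting: not given in the sources used here. Genotype labels gave 3 libraries per group, with 7464546 to 8980395 counts each.

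The fit used edgeR 4.0.16 (R 4.3.3) with TMM scaling, filterByExpr (minimum count 10, 10475 genes kept), glmQLFit and glmQLFTest with no covariate, and Benjamini-Hochberg adjustment over all genes at 0.05. SE is the estimate over the square root of F, and levels are CPM on TMM-scaled sizes. A 3′ tag count does not grow with transcript length, so CPM was used without a length correction, also to order the genes of a marker list. The procedure was tested on simulated data. Alternatives were DESeq2 1.42.0, limma-voom (limma 3.58.1), robust fitting, other scalings, no filter, a replicate block, Rn45s left out, and each library left out; leaving out both libraries numbered 1, and recounting the separated factors, were added after seeing the data.

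The 10 factors and the lists were chosen with earlier results of these data known. Named were all 10 factors, Ipmk, the 4 tested genes with the smallest p in each of 4 lists (Irf8, Id3 and Batf3 stood in more than 1 list), the 2 most abundant genes of each marker list (Il1rl1 is also an output gene), and the 4 genes most like the factors' mean. Further genes named, such as Foxp3, Eomes, Ets1, Bcl6, Nfatc3 and Jund, were chosen after their values were seen. The sums without Maf, and without Maf and Gata3, were not planned. Coordinates are from GENCODE M21 (mm10). Some single genes and 1 of the 9 gene pairs are not reported here.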

Additional observations from a re-analysis of the deposited data

How the results depend on the processing

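No factor was called in any of 15 alternative settings, whose smallest adjusted p was 0.401 (Maf, DESeq2). The median log2 fold change of the factors lay between −0.59 and −0.34. Estimates of Batf, Irf4, Prdm1, Nfil3, Maf, Rora and Id2 stayed below 0 and that of Myb above 0 in all 15. Over the libraries left out 1 at a time, Gata3 ranged from −0.14 to 0.37 and Bhlhe40 from −0.28 to 0.47. Gata3 turned to −0.14 without IPMK cKO replicate 1 and to −0.26 without both libraries numbered 1. Bhlhe40 turned to −0.18 without wild type replicate 1, −0.28 without IPMK cKO replicate 2, −0.15 without IPMK cKO replicate 3, −0.0051 in limma-voom and −0.13 with the replicate block. The cause was not tested. With 1 library left out, the median of the paralogs ranged from −0.49 to 0.53 and that of the effector output genes from −1.03 to −0.52; the latter was −0.94 in limma-voom and −0.91 with the replicate block. Nothing in the labels ties replicate numbers to an animal or day. Deviations of same-numbered libraries correlated at 0.0454, 0.0877 and 0.0265 across genes, and each library correlated best with its own number. These correlations are small and depend on each other, since deviations cancel within a group. Whether the libraries are paired was not tested. The block changed no call (0 factors and 0 genes called). The lowest count in a library was 0 for Nfil3, 32 for Bhlhe40, 39 for Irf4 and 40 for Myb.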

Other observations

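Nfil3 and the proline- and acid-rich factors Tef and Dbp bind the same D-box sites with opposite effect. The 2 IPMK cKO libraries with almost no Nfil3 tag, replicates 1 and 3, had Tef at 123 and 79.7 CPM. It was at 37.2, 40.3 and 40.9 CPM across wild type, and at 32.5 CPM in IPMK cKO replicate 2, where Nfil3 was at 7.45 CPM. Dbp was at 24.2, 26.7 and 96.2 CPM in IPMK cKO replicates 1 to 3 and at 28.2, 18.4 and 26.8 CPM in wild type. So Tef was high in both libraries poor in Nfil3 and Dbp in replicate 3 alone. Of these libraries, IPMK cKO replicate 1 is the one that stood apart from the others. Hlf, in the same paralog list, was at 0, 5.74 and 1.35 CPM in wild type against 0, 0 and 7.10 CPM in IPMK cKO, so it was not raised in replicate 1. The pattern of Tef was noticed after the values were seen, and a link to Nfil3 was not tested.

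In IPMK cKO replicate 1, where Irf4 was at 5.49 CPM, the calcium-responsive factor Nfatc3 was at 116 CPM, against 462 to 524 CPM in the other 5 libraries, and Jund was at 930 CPM, against 254 to 357 CPM. Estimates that rest on that library, such as those of Irf4 and Gata3, are given above with and without it.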
